A study of Homo sapiens with 8 samples.

Results

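The genes examined here were among those with large increases in HepaRG cells treated with 20 µM cycloheximide, and their levels were followed across every chemical and concentration of the series. They were NEGR1, BMPER, TMEM156, KCTD16, SNAPC1, IL1RL1, PAPPA and CCDC80, which are 8 of the 62703 genes in the deposited count matrix. They were chosen by their high measured levels at 20 µM cycloheximide, so every comparison of a cycloheximide concentration with the vehicle is given below as a description and carries no test. The stated choice names only cycloheximide-treated cells, and it does not say whether levels under the other chemicals entered the comparison. The shares of cells and the marker classes at 20 µM come from the cells that chose the genes, so they describe how the selected UMIs were distributed and are no further evidence of a rise.

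HepaRG is an established human liver progenitor line whose differentiated cultures hold hepatocyte-like and cholangiocyte-like cells. Cells were cultured for 7 days and exposed for 24 h to 1 of 7 chemicals, to the 0.1% DMSO vehicle or to medium, and single-cell RNA was then measured by split-pool barcoding in 8 sublibraries split from 1 pool of cells. The 12976 cells have 12976 distinct barcodes, so the sublibraries share none. The chemicals were cycloheximide at 0.2, 2 and 20 µM, etoposide at 0.25, 2.5 and 25 µM, tunicamycin and brefeldin A at 0.001, 0.01 and 0.1 µM, tBHQ at 3, 30 and 300 µM, rotenone at 0.2 and 0.4 µM and troglitazone at 50 µM. Each cell carries a sample name that starts with a number and ends with a replicate number. The sources do not define the first number, which is called the run here. The cells of 1 sample name are called a culture. The study's methods name only 1 treated culture for each condition, so the sample names may be technical repeats, and p-values measure the spread between them. All cells, the vehicle cells included, were dissociated in a buffer with actinomycin D and with anisomycin, itself an inhibitor of translation.

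Cells with 500 genes or more and no more than 20% of UMIs (unique molecular identifiers, 1 per captured transcript) from mitochondria were kept and summed within 38 cultures of 30 or more kept cells. The sums held 1741603 to 97081214 UMIs. DMSO was represented by 4 cultures (runs 3, 4, 5 and 6) with 93 to 311 cells each, and 20 µM cycloheximide by 225 cells in run 3 and 37 cells in run 4. All 10 hepatocyte markers and all 8 cholangiocyte markers were detected in the DMSO cells. Levels are given as CPM, the UMIs of a gene per 1000000 UMIs of the culture. Because CPM is a share of the total, fewer cells of a type and less RNA per cell cannot be told apart in these sums.

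Cycloheximide blocks translation elongation on the ribosome. Transcripts whose decay needs ongoing translation, among them targets of nonsense-mediated decay and many short-lived transcripts with AU-rich elements in the 3′ UTR, are known to accumulate when translation stops. The 8 genes do not form 1 pathway. BMPER, PAPPA and CCDC80 encode secreted proteins: a modulator of bone morphogenetic proteins (BMPs), a metalloprotease that cleaves insulin-like growth factor (IGF) binding proteins, and a matrix-associated protein. NEGR1 and IL1RL1 encode surface proteins, a GPI-anchored adhesion molecule of the IgLON family and the receptor for interleukin 33. KCTD16 encodes an auxiliary subunit of the GABA-B receptor, TMEM156 a transmembrane protein of little described function, and SNAPC1 a subunit of the complex that starts transcription of small nuclear RNA genes.

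The genes lie on 8 different chromosomes (GRCh38, GENCODE 44): NEGR1 at chr1:71395943-72282539, IL1RL1 at chr2:102311502-102352037, CCDC80 at chr3:112596797-112649530, TMEM156 at chr4:38966744-39032922, KCTD16 at chr5:144170873-144485686, BMPER at chr7:33904308-34156427, PAPPA at chr9:116153791-116402321 and SNAPC1 at chr14:61762420-61796428. They spanned from 34.0 kb for SNAPC1 to 887 kb for NEGR1, against a median of 27.5 kb over 20015 protein-coding genes, and 4 of the 8 were longer than 100 kb. The 3′ UTR of the canonical transcript was longer than the median of 1065 bases in 6 of the 8, reaching 11572 bases in KCTD16 and 11503 bases in NEGR1, and it was 936 bases in TMEM156 and 116 bases in IL1RL1. The pentamer ATTTA, the core of AU-rich elements, occurred in the 3′ UTR of 7 of the 8, against 67.5% of all annotated 3′ UTRs. Its density was 2.10 to 4.27 per kb in those 7 genes, against a median of 1.5 per kb over all, and IL1RL1 had none. The nonamer TTATTTATT, a longer form of the element, occurred in NEGR1, KCTD16 and PAPPA, against 8.44% of all 3′ UTRs. These letters were searched on the transcript strand only, and the long 3′ UTRs of these genes give more room for a match. One nonamer site of each gene is shown, from the GENCODE transcript, with the nonamer in capitals:
NEGR1: taactttaTTATTTATTtgctttta
KCTD16: gtttcaatTTATTTATTttctttta
PAPPA: agtaaactTTATTTATTaagaatgt

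RefSeq start sites were matched for 7 of the 8 genes in 10 promoter windows of 250 bases before the start (GRCh38). Motifs of 6 kinds were searched on both strands: the AP-1 site (TGANTCA), the cAMP response element (TGACGTCA), the TATA box (TATAAA), the CCAAT box (CCAAT), the GC box (GGGCGG) and the E box (CACGTG). Of 35116 windows of all genes, they occurred in 6.57%, 1.65%, 10.7%, 32.0%, 42.6% and 6.34%, respectively. A TATA box stood 28 bases before the start of PAPPA and 29 bases before a start of IL1RL1, TMEM156 had 3 overlapping or adjacent TATA matches between 208 and 216 bases before its start, and SNAPC1, KCTD16 and BMPER had GC boxes. No motif occurred in all the genes, and the window of CCDC80 held none of the 6. That window, chr3:112641144-112641393 on the minus strand, lies inside the annotated gene, whose 5′ end is at 112649530. Annotated exons of CCDC80 cover 157 of its 250 bases. The lack of motifs there does not describe the sequence before the annotated gene start. The windows of BMPER, TMEM156 and IL1RL1, and the KCTD16 window not printed below, also lie wholly or partly inside their annotated genes. The TATA box of IL1RL1 lies in an annotated exon, past the gene start at chr2:102311502. The 3 windows that hold no base of an annotated exon of their gene are printed with the motif in capitals, as they show the range from a TATA window to GC-box windows.
PAPPA, chr9:116153541-116153790, plus strand: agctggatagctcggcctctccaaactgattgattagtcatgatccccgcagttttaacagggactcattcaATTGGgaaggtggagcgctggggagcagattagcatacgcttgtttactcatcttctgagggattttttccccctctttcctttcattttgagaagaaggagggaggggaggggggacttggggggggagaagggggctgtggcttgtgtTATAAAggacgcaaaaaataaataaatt
SNAPC1, chr14:61762170-61762419, plus strand: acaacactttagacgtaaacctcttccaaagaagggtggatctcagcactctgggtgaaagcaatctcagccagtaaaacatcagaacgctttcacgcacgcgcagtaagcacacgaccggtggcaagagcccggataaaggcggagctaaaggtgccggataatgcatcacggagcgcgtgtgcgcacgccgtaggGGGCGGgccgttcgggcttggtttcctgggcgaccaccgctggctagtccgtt
KCTD16, chr5:144170623-144170872, plus strand: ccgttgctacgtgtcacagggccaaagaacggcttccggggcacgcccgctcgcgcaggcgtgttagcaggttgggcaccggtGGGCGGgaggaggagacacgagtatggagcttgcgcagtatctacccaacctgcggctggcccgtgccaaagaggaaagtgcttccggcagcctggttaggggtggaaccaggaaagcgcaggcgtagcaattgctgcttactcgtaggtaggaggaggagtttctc
AP-1 matches stood 81 bases before the start of TMEM156 (TGACTCA) and 191 bases before the second start of IL1RL1 (TGATTCA). For TMEM156, the 47 bases around it at chr4:39032464-39032510 (minus strand) follow.
TMEM156: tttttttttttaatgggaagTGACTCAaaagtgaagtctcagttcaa

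At 20 µM cycloheximide all 8 genes stood above their levels in each of the other 36 cultures of the series. The share of all genes with such a separation was not counted, and this contrast chose the 8. The mean CPM was 3.56-fold the DMSO mean for CCDC80, the smallest ratio, and 11.1-fold for BMPER, the largest, and the median over the genes was 2.60 on the log2 scale. In the edgeR fit over 18706 genes, 6.52% of all genes were called higher at this concentration and 19.7% in either direction. Since this contrast chose the genes, their fitted log2 fold changes of 1.84 to 3.49 are a description. Under this fit BMPER ranked 8th and CCDC80 147th of the 18706 genes from the highest.

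Among the secreted factors, BMPER, which binds BMPs outside the cell, was at 14.8, 21.1, 16.3 and 16.2 CPM in the DMSO cultures of runs 3, 4, 5 and 6, and at 192 and 186 CPM in the 20 µM cultures of runs 3 and 4. The treated cultures lay far above the DMSO cultures and close to each other. In run 4 the 4 richest of 37 cells carried 59.5% of the BMPER UMIs, against 48.0% for the 22 richest of 225 cells in run 3. The DMSO cultures ranged from 60.4% in the 31 richest of 311 cells (run 5) to 70.8% in the 13 richest of 127 (run 4). PAPPA, the protease that releases IGF from its binding proteins, was the most abundant of the 8 in CPM, with 109, 174, 121 and 93.6 CPM in DMSO and 593 and 472 CPM at 20 µM. CCDC80 was at 42.4, 38.9, 35.6 and 32.0 CPM in DMSO and at 169.5 and 95.3 CPM at 20 µM. Both genes were higher in run 3 than in run 4 of the treated cells, and neither overlapped the DMSO cultures. Without the run 3 treated culture, the log2 ratio of CCDC80 to the DMSO mean would be 1.36 in place of 1.83. The 4 richest of 37 cells in run 4 carried 67.4% of the CCDC80 UMIs, against 45.7% for the 22 richest of 225 cells in run 3. The DMSO cultures ranged from 42.9% in the 31 richest of 311 cells (run 5) to 58.4% in the 9 richest of 93 (run 6).

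Of the surface proteins, NEGR1 was at 32.8, 41.8, 25.2 and 34.9 CPM in DMSO and at 252 and 257 CPM at 20 µM. The receptor IL1RL1 was at 7.73, 12.9, 10.0 and 30.7 CPM in DMSO and at 74.9 and 109 CPM at 20 µM. NEGR1 had nearly the same CPM in both treated cultures. In run 4, however, the 4 richest of 37 cells carried 71.2% of its UMIs, against 46.3% for the 22 richest of 225 cells in run 3. The DMSO cultures ranged from 56.6% in the 31 richest of 311 cells (run 5) to 74.4% in the 9 richest of 93 (run 6). IL1RL1 varied most among the DMSO cultures, with run 6 above the others. TMEM156 was at 31.6, 51.2, 21.8 and 50.6 CPM in DMSO and at 244 and 94.7 CPM at 20 µM. Its treated cultures differed more than those of any other gene of the 8, although the lower one was still above all DMSO cultures. Its log2 ratio of 2.13 becomes 1.29 without the run 3 treated culture.

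KCTD16, the GABA-B receptor subunit, was at 16.6, 19.02, 10.1 and 6.85 CPM in DMSO and at 81.2 and 81.4 CPM at 20 µM. SNAPC1, the transcription factor subunit, was at 35.9, 32.2, 27.0 and 24.9 CPM in DMSO and at 256 and 112 CPM at 20 µM. KCTD16 was nearly equal in both treated cultures and SNAPC1 was higher in run 3, without which its log2 ratio of 2.62 becomes 1.90. Few cells stand behind the KCTD16 values: the 4 richest of 37 cells carried 80.9% of its UMIs in run 4. The 22 richest of 225 cells carried 77.4% in run 3. KCTD16 was also concentrated in the DMSO cultures, from 79.9% in the 31 richest of 311 cells (run 5) to 92.3% in the 13 richest of 127 (run 4).

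The runs hold different mixtures of cultures, so ratios were also taken within run 3 and within run 4, the only runs with cycloheximide. A run need not pair its cultures. The run 3 minus run 4 difference correlated with that of DMSO at 0.57, -0.28 and -0.17 for 0.2, 2 and 20 µM. The median mitochondrial share of all cells in run 4 was 2.47% in DMSO and 1.31%, 13.3% and 14.5% at 0.2, 2 and 20 µM. In run 3 it was 15.2%, 21.4%, 18.7% and 18.3%. Within run 3 the median log2 ratio to DMSO over the genes was 2.89 (range 2.00 to 3.70), and within run 4 it was 1.95 (0.89 to 3.14). The smallest value belonged to TMEM156 in run 4. Across the 8 sublibraries the lowest value of each gene at 20 µM lay above the highest value in DMSO, for example 183 against 35.7 CPM for NEGR1 and 41.4 against 20.9 CPM for KCTD16. The sublibraries share cultures, so this comparison describes the measurement and not the treatment. The share of all genes so separated was not counted.

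The levels at the lower concentrations depended on the run, and edgeR called 1 of 19926 genes (0.00502%) at 2 µM and none of 18012 at 0.2 µM, where 1457 and 674 genes had an unadjusted p under 0.05. At 2 µM, run 3 showed BMPER at 76.8, NEGR1 at 76.0, PAPPA at 255, CCDC80 at 68.1, TMEM156 at 64.6, SNAPC1 at 36.5, IL1RL1 at 32.9 and KCTD16 at 17.3 CPM. In run 4 the same concentration gave 21.5, 60.9, 115, 60.3, 39.4, 27.3, 12.9 and 24.2 CPM in that order of genes. Within run 3 the median log2 ratio to DMSO increased from 0.27 at 0.2 µM to 1.12 at 2 µM and 2.89 at 20 µM. Within run 4 it was 0.20, 0.02 and 1.95.

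Between the cycloheximide concentrations NEGR1 and CCDC80 rose at both steps in both runs, although CCDC80 in run 4 was lower at 0.2 µM (21.2 CPM) than in DMSO (38.9 CPM). The log2 step of NEGR1 from 0.2 to 2 µM was 0.79 in run 3 (95% counting interval 0.61 to 0.97) and 0.39 in run 4 (0.05 to 0.75). BMPER rose by 1.38 (1.17 to 1.60) at this step in run 3 but fell by 1.00 on the log2 scale in run 4 (-1.40 to -0.59). IL1RL1, PAPPA, TMEM156 and SNAPC1 had the same opposite signs in the 2 runs. For IL1RL1 in run 4, the 7 richest of 69 cells carried 98.8% of its UMIs at 0.2 µM. The step of CCDC80 was 0.63 in run 3 and 1.505 in run 4. For KCTD16 the intervals of this step held 0 in both runs. From 2 to 20 µM all 8 genes rose in both runs, from 0.66 for CCDC80 in run 4 to 3.11 for BMPER in run 4. These intervals cover counting error only and not the spread between cultures.

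At 0.2 µM, IL1RL1 was at 24.2 and 48.2 CPM in runs 3 and 4, above its level of 32.9 and 12.9 CPM at 2 µM only in run 4. That run 4 value rests on few cells, since the 7 richest of 69 carried 98.8% of the IL1RL1 UMIs. BMPER was at 29.4 and 43.1 CPM and PAPPA at 192 and 197 CPM, above all 4 DMSO cultures, whereas CCDC80 was at 44.1 and 21.2 CPM, on both sides of them. The summed hepatocyte markers were 6461 and 9669 CPM in the 0.2 µM cultures and 8722 and 19508 CPM in those at 2 µM, against 10808 to 26679 CPM in DMSO. The part of these differences in the levels of the 8 genes was not tested.

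**Figure D1:**
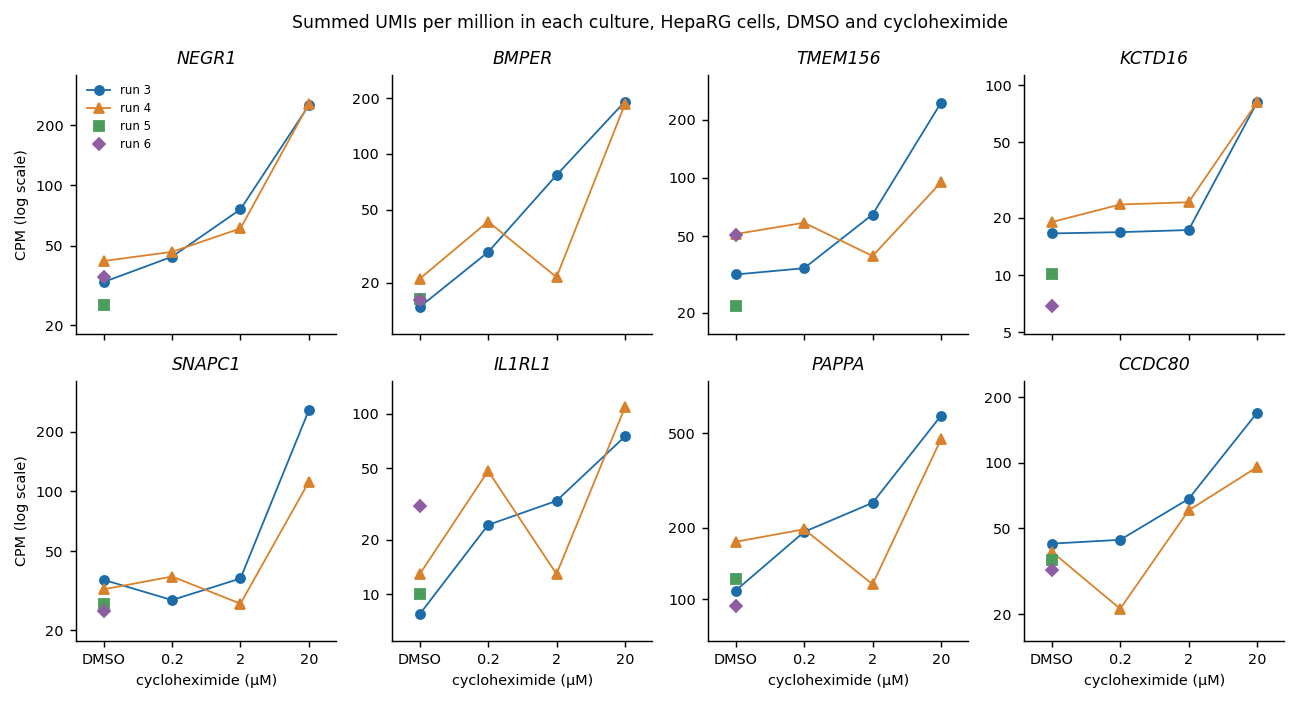
CPM on a log scale of each gene in every DMSO and cycloheximide culture, with 1 point per culture, shape and color for the run, and lines joining the cultures of runs 3 and 4. All genes are highest at 20 µM in both runs, while at 2 µM BMPER is at 76.8 CPM in run 3 and 21.5 CPM in run 4.

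The levels of the 8 genes were also followed under the other chemicals. Under etoposide, a topoisomerase II inhibitor, tunicamycin, an inhibitor of N-glycosylation, troglitazone, a PPARγ agonist, and medium, none of the 8 genes was called by edgeR's quasi-likelihood test with Benjamini-Hochberg adjustment in any of 8 contrasts with DMSO. The lowest adjusted p was 0.864 over 64 estimates, 4 of the 64 had an unadjusted p under 0.05, and DESeq2 called none as well. Few genes of any kind were called: 14 of 17954 genes (0.078%) were higher with troglitazone, 1 of 18577 (0.00538%) was higher with tunicamycin at 0.1 µM, and there were no calls in the other 6. With 2 to 4 treated cultures, a miss here does not show that a gene was unchanged. These counts depend on the run: with the run as a term in the edgeR fit, IL1RL1 was called higher at 2.5 µM etoposide (log2 fold change 1.18, adjusted p = 0.00266), and genes were called in each of these contrasts but medium, up to 202 higher and 119 lower at 0.001 µM tunicamycin.

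The 4 estimates under 0.05 before adjustment were IL1RL1 and PAPPA with troglitazone, TMEM156 with medium and CCDC80 with etoposide at 2.5 µM. IL1RL1 was at 4.09, 4.06, 5.70 and 8.09 CPM in the troglitazone cultures of runs 3, 4, 5 and 6, and its estimate was -1.42 on the log2 scale (SE 0.42, unadjusted p = 0.0051 in edgeR, adjusted p = 0.864). Each troglitazone culture was below the DMSO culture of its own run, although the run 6 value of 8.09 CPM lay above the lowest DMSO culture. TMEM156 was at 19.99, 23.9 and 22.5 CPM in the medium cultures of runs 3, 5 and 6, and these values overlapped the DMSO range at its lower end. Its log2 fold change was -0.78 (SE 0.27, adjusted p = 0.998 in edgeR).

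Brefeldin A, which blocks transport from the endoplasmic reticulum, and tBHQ, an electrophile that activates NRF2, had 1 culture per concentration, all in run 4, and no test was made. Within run 4 the median log2 ratio of the 8 genes to DMSO was -0.12, -0.41 and -0.28 at 0.001, 0.01 and 0.1 µM brefeldin A and -0.40, -0.56 and -0.46 at 3, 30 and 300 µM tBHQ. The DMSO culture of run 4 was the highest of the 4 for NEGR1, BMPER, TMEM156, KCTD16 and PAPPA, and against all DMSO cultures the medians were 0.20, -0.05 and -0.04 for brefeldin A and 0.01, -0.15 and -0.07 for tBHQ. The highest level of BMPER in the 32 cultures without cycloheximide was 25.7 CPM at 0.01 µM brefeldin A, against 21.1 CPM in the DMSO culture of the same run. NEGR1 was at 13.0 CPM at that concentration, against 41.8 CPM in DMSO of run 4, while it was at 40.7 CPM at 0.001 µM and 24.0 CPM at 0.1 µM.

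**Figure D2:**
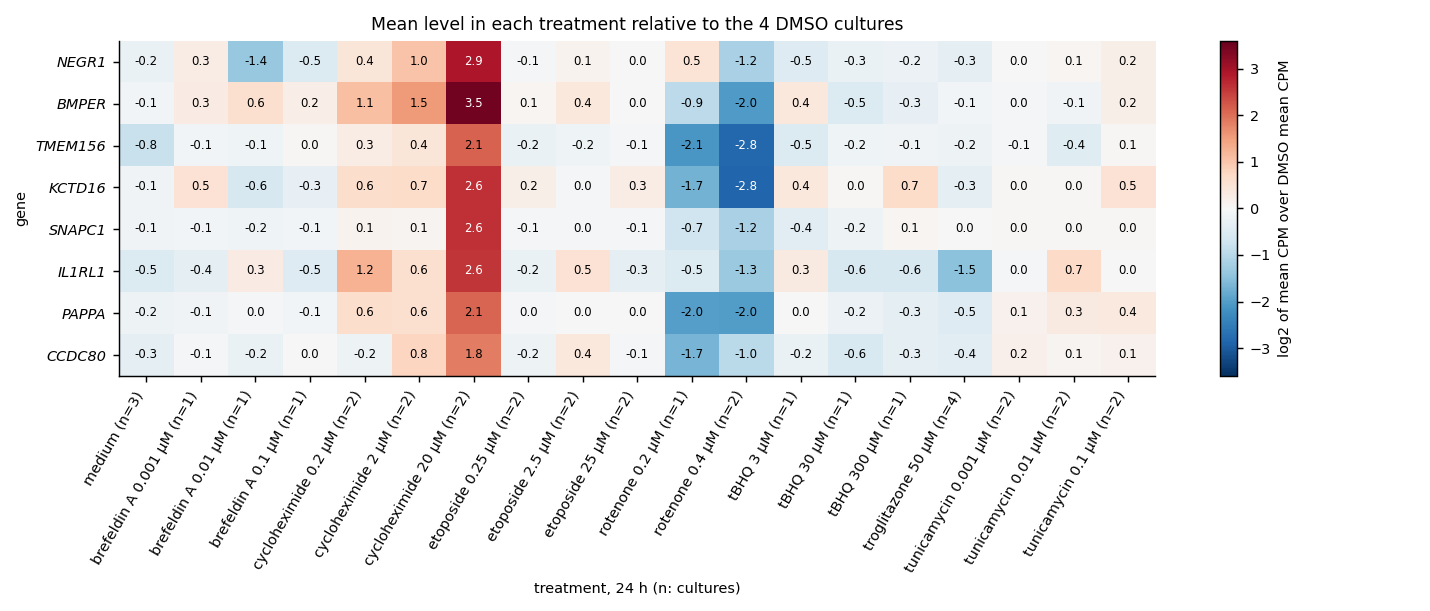
Log2 ratio of the mean CPM in each treatment to the mean of the 4 DMSO cultures, with genes in rows, treatments in columns and the number of cultures in the labels. The column for 20 µM cycloheximide holds the highest values, between 1.83 and 3.47, and the rotenone columns hold most of the lowest.

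Rotenone, an inhibitor of mitochondrial complex I, was the only other tested chemical with calls among the 8 genes in the edgeR fits without the run as a term. These calls were lower. The contrasts of the other tested chemicals had few calls of any gene, so they could hardly show a change. At 0.4 µM, 7 of the 8 genes were called lower by edgeR, where 42.2% of 19831 tested genes were lower, 19.1% higher and 61.4% changed in either direction. The median log2 fold change of the 8 genes was -1.60, against -0.56 for all genes tested. With TMM factors the median of all genes moved to -0.10 and the calls to 5570 higher and 6078 lower, against 3794 higher and 8373 lower with the total count. Under that scaling, 5 of the 8 genes were called lower, and NEGR1 (adjusted p = 0.0623) and CCDC80 (adjusted p = 0.057) were not.

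KCTD16 had the largest decrease, with 1.70 and 1.96 CPM in the cultures of runs 5 and 6 and a change of -2.86 on the log2 scale (SE 0.45, adjusted p = 0.000153 in edgeR). TMEM156 was at 7.99 and 2.94 CPM, with a change of -2.70 (SE 0.45, adjusted p = 0.000247 in edgeR). PAPPA was at 33.2 and 28.0 CPM and changed by -2.01 (SE 0.28, adjusted p = 6.06e-05 in edgeR), and BMPER was at 4.85 and 3.50 CPM and changed by -1.98 (SE 0.30, adjusted p = 0.000117 in edgeR). In these 4 genes both treated cultures were below all DMSO cultures, a separation whose share over all genes was not counted. The changes remained called with TMM factors and with DESeq2 size factors. Relative to the median of all genes, the changes were -2.31, -2.15, -1.46 and -1.42.

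SNAPC1 was at 14.2 and 12.7 CPM with 0.4 µM rotenone (log2 fold change -1.15, SE 0.25, adjusted p = 0.00157 in edgeR) and was also called with TMM factors (adjusted p = 0.0258). NEGR1 was at 9.74 and 20.1 CPM and CCDC80 at 18.0 and 20.0 CPM, again below all DMSO cultures, with log2 fold changes of -1.20 and -0.98. For NEGR1 the call rested on run 5, since without that culture the adjusted p was 0.0819 in edgeR. IL1RL1 was at 8.76 and 3.36 CPM, with run 5 inside the DMSO range, and was not called (log2 fold change -1.22, SE 0.53, adjusted p = 0.0623 in edgeR). It was called without the run 5 rotenone culture (adjusted p = 0.037) and without the run 3 or the run 5 DMSO culture (adjusted p = 0.0188 and 0.0471).

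Genes longer than 100 kb had a median log2 fold change of -0.97 at 0.4 µM rotenone, against -0.45 for genes of 10 to 100 kb. The 4 long genes of the 8 were NEGR1, KCTD16, BMPER and PAPPA, whereas TMEM156, with 66.2 kb, was among the 2 that fell most. At 20 µM cycloheximide the genes over 100 kb had a median of -0.24. The part of gene length in the rotenone levels was not tested. The rotenone culture of run 5 was deep, with a median of 184485 UMIs per cell, while that of run 6 had 45112.5. In both, 7 of the genes were below all DMSO cultures. The share of all tested genes that lay so was not counted, and 42.2% of all tested genes were called lower.

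At 0.2 µM rotenone there was 1 culture, in run 5, and no test was made. PAPPA was at 31.4, TMEM156 at 9.16, KCTD16 at 4.01, BMPER at 8.86, CCDC80 at 11.6 and SNAPC1 at 18.4 CPM, all below their DMSO cultures. The share of all genes that lay so was not counted. IL1RL1 was at 10.8 CPM, within the DMSO range. NEGR1 went the other way, with 47.0 CPM, its highest level in the 32 cultures without cycloheximide, against 25.2 CPM in DMSO of the same run and 9.74 CPM at 0.4 µM in that run.

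**Figure D3:**
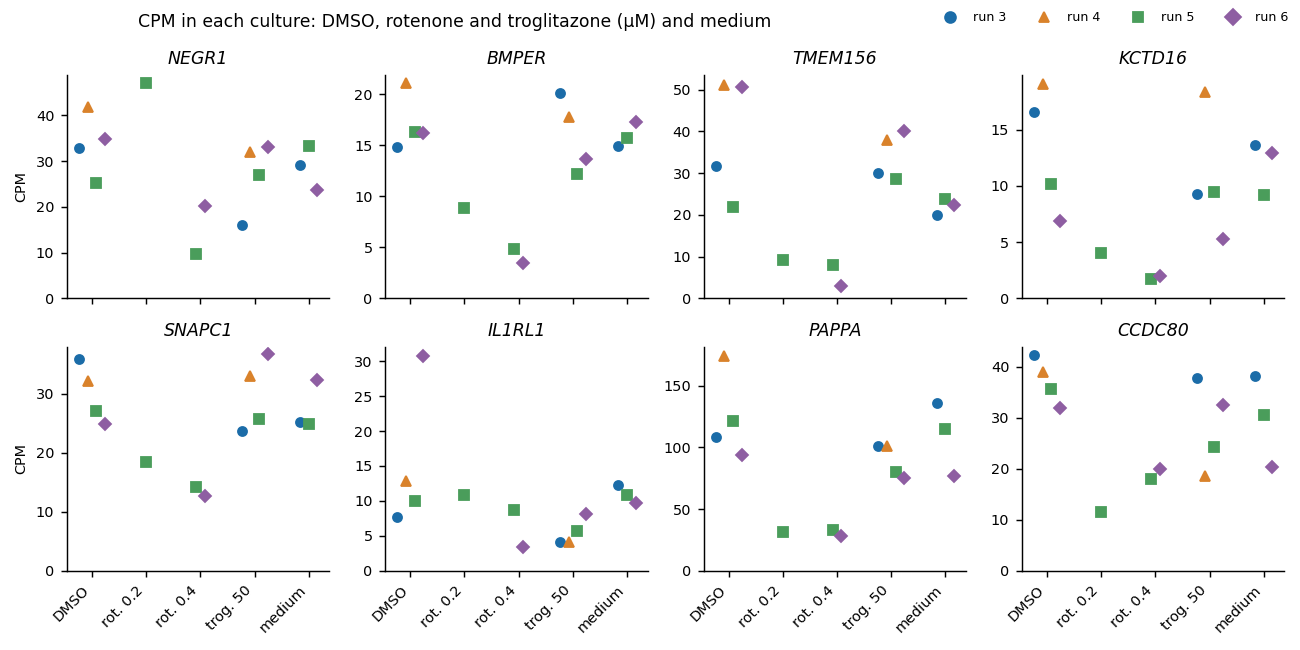
CPM of each gene in every culture of DMSO, rotenone (rot., 0.2 and 0.4 µM), troglitazone (trog., 50 µM) and medium, with shape and color for the run. Both cultures at 0.4 µM rotenone lie below all 4 DMSO cultures in 7 genes, while IL1RL1 at 8.76 CPM in run 5 lies within the DMSO range. The share of all genes with such a separation was not counted.

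The UMIs behind the levels at 20 µM were spread over a larger share of cells than in DMSO, as a description of the cells that chose the genes. Each cell was thinned to 5000 UMIs so that depth was equal. The share for PAPPA was 35.7% of 781 DMSO cells (exact 95% interval 32.4 to 39.2) and 83.6% of 262 cells at 20 µM (78.5 to 87.9). NEGR1 went from 11.7% to 48.5%, SNAPC1 from 13.7% to 51.1%, TMEM156 from 10.9% to 46.6%, CCDC80 from 17.3% to 43.5%, BMPER from 6.40% to 35.5% and IL1RL1 from 3.71% to 22.1%. Of the 262 cells, 225 were from run 3, and the share in run 4 was lower for NEGR1 (27.0%, against 52.0% in run 3), TMEM156 (21.6% against 50.7%) and SNAPC1 (35.1% against 53.8%), each still above the pooled DMSO share. For PAPPA it was 83.8% against 83.6%. KCTD16 remained rare, in 4.10% of DMSO cells and 14.9% of cells at 20 µM. Without thinning, the shares were 17.03% to 76.7% in DMSO and 30.9% to 97.7% at 20 µM, at medians of 37231 and 31336.5 UMIs per cell. The intervals cover counting error only. No marker class here is known to lack these genes, so the share that free RNA gives was not measured.

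A DMSO cell held a mean of 1.03 of the 8 genes after thinning, and a cell at 0.2, 2 and 20 µM cycloheximide held 1.29, 1.78 and 3.46. At least 4 of the 8 were found in 1.66% of DMSO cells and in 47.7% of cells at 20 µM, with 51.6% in run 3 and 24.3% in run 4. Cells with none of the 8 made up 32.4% in DMSO and 1.53% at 20 µM. In the 20 µM culture of run 3 the 22 of 225 cells richest in KCTD16 carried 77.4% of its UMIs, while the 22 richest cells carried 33.0% for PAPPA and 42.6% for TMEM156. The 22 deepest cells held 31.3% of all UMIs of that culture. PAPPA was thus spread over the cells much as the total UMIs were, and KCTD16 was concentrated in few cells, as it was in DMSO.

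**Figure D4:**
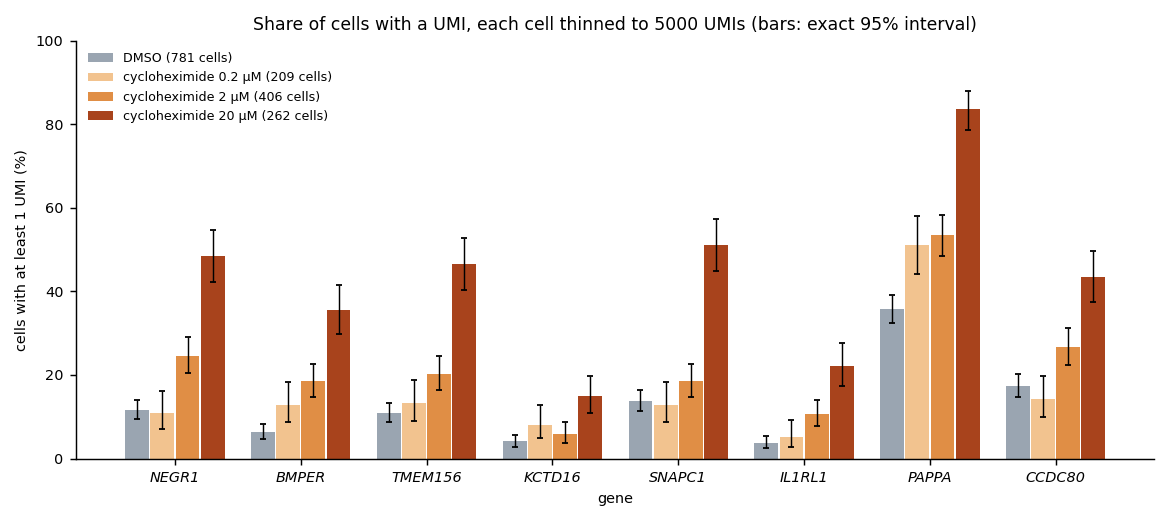
Percent of cells with at least 1 UMI of each gene after thinning each cell to 5000 UMIs, for DMSO and 3 cycloheximide concentrations, with exact 95% intervals. The bars at 20 µM are the tallest for all 8 genes, from 14.9% for KCTD16 to 83.6% for PAPPA.

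Each cell was put in the class of the list (hepatocyte, cholangiocyte or mesenchymal markers) whose summed share was highest relative to that list's mean over all cells. The assignment is a range and not a type, since 27.7% of 8340 cells had a top score less than 1.5 times the next one, and the cells at 20 µM held fewer markers. Cells of the hepatocyte class had a median of 25037 CPM of hepatocyte markers in DMSO and 5707 CPM at 20 µM. Summed over a culture, hepatocyte markers were 3120 and 7175 CPM at 20 µM, against 10808 to 26679 CPM in DMSO. Mesenchymal markers were 107 and 119 CPM, against 122 to 242 CPM. A class is the highest relative share, so loss of hepatocyte markers alone can move a cell to another class. The classes at 20 µM need not hold the same kinds of cells as in DMSO. All 8 genes were higher at 20 µM than in DMSO in each of the 3 classes. In the DMSO cells TMEM156 was highest in the hepatocyte class, with 39.1 CPM against 10.5 CPM in the mesenchymal class, and PAPPA was highest in the mesenchymal class, with 179.7 CPM against 78.0 CPM in the hepatocyte class.

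At 20 µM the classes differed by gene. KCTD16 reached 116 CPM in the mesenchymal class (151 cells), against 29.1 CPM in the hepatocyte class (74 cells) and 21.3 CPM in the cholangiocyte class (37 cells). Few cells can set this difference: the 22 richest of 225 cells in run 3 and 4 of 37 in run 4 carried 77.4% and 80.9% of its UMIs. NEGR1 was also highest in the mesenchymal class, with 326 CPM against 133 and 157 CPM. IL1RL1 had the reverse order, with 154 CPM in the hepatocyte class, 89.0 in the cholangiocyte class and 45.3 in the mesenchymal class. BMPER varied little, between 165.5 and 204 CPM. These values pool the cells of 2 cultures, so they carry no test.

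**Figure D5:**
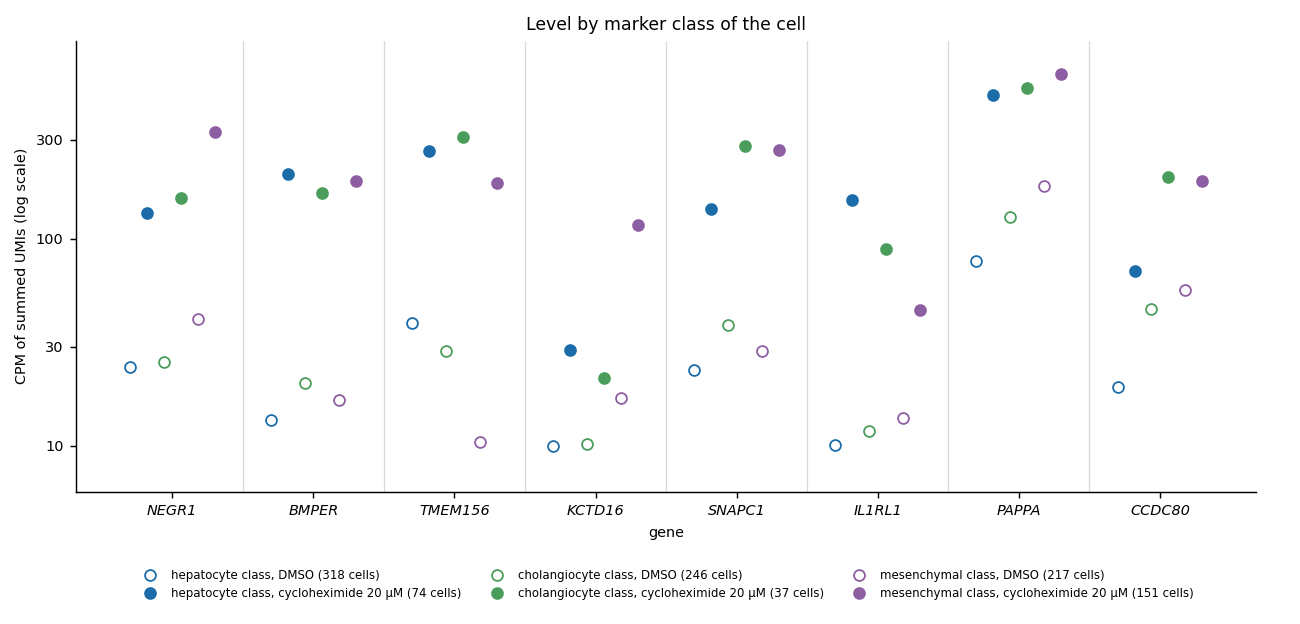
CPM on a log scale of each gene in DMSO (open points) and 20 µM cycloheximide (filled points) in cells of the hepatocyte, cholangiocyte and mesenchymal marker classes, pooled over cultures. The filled points lie above the open ones of the same class for all genes, and KCTD16 is at 116 CPM in the mesenchymal class and 29.1 CPM in the hepatocyte class at 20 µM. Few cells carried most of the KCTD16 UMIs.

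Genes with known ties to the 8 were followed as lists at 20 µM cycloheximide, where 6.52% of all genes were higher and 13.2% lower and the median log2 fold change was -0.12. With DESeq2 size factors the calls were 1657 higher and 2177 lower, against 1220 and 2474 with the total count, and the median was -0.01. On the IGF axis around PAPPA, 5 of 16 tested genes rose and 6 fell, with a list median of -0.49. STC1 and STC2, stanniocalcins that inhibit PAPP-A, rose by 2.06 (SE 0.34, adjusted p = 0.00164 in edgeR) and 2.36 (SE 0.42, adjusted p = 0.00236 in edgeR). IGFBP4, a binding protein cleaved by PAPP-A, rose by 0.90, and the receptor substrates IRS2 and IRS1 rose by 1.12 and 0.89. The ligand IGF1 fell by 3.96 on the log2 scale, from 4.46 to 11.0 CPM in DMSO to 0.30 and 1.07 CPM, and IGFBP5 and IGFBP1 fell by 2.90 and 2.85.

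Around SNAPC1, 7 of 27 genes of the small nuclear RNA activating complex and RNA polymerase III initiation rose and 1 fell (list median 0.28). POLR3D, a polymerase III subunit, rose by 1.58 from 14.5 to 15.6 CPM in DMSO to 46.9 and 43.4 CPM. POU2F1, the octamer-binding factor that acts with the complex at small nuclear RNA genes, fell by 1.41, and GTF3C1 and POLR3A rose by 0.98 and 0.92. Around BMPER, 1 of 20 BMP genes rose and 4 fell (list median -0.31). FST, the antagonist follistatin, rose by 0.88, and the antagonist CHRD, the ligand BMP2, the target ID2 and the decoy receptor BAMBI fell by 2.10, 1.93, 1.24 and 1.08.

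Around IL1RL1, 2 of 11 genes of the IL-33 and IL-1 receptor family rose and 2 fell (list median -0.36). The decoy receptor IL1R2 fell by 2.53 and the receptor IL1R1 by 0.88, while IRAK1, a kinase of the pathway, rose by 1.45 and the cytokine IL18 by 0.73. None of 3 tested IgLON genes and none of 13 KCTD and GABA-B receptor genes was called by edgeR or DESeq2 at 20 µM, and 0 and 1 of them had an unadjusted p under 0.05 in edgeR (list medians -0.64 and -0.12). Of 12 matrix genes related to CCDC80, 3 fell and none was called higher by edgeR or DESeq2, with 0 higher at an unadjusted p under 0.05 (list median -0.35): FN1, LAMB1 and LAMA2, which encode fibronectin and laminin chains, fell by 1.89, 1.81 and 1.22.

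Transcripts known to depend on translation for their decay were also followed. Of 29 nonsense-mediated decay targets and factors, 9 rose at 20 µM cycloheximide by edgeR (12 by DESeq2) and none was called lower by either. At an unadjusted p under 0.05, 1 was lower (list median 0.45). ZFAS1, GAS5, SNHG15 and SNHG16, noncoding hosts of small nucleolar RNAs, were at 1.36, 1.26, 1.24 and 1.12. At 0.4 µM rotenone, edgeR called 20 of the 29 higher and 3 lower (list median 1.06, against -0.56 for all genes tested). This list thus rose with rotenone as well, and the cause was not tested with either chemical. Of 42 immediate early and short-lived transcripts, 3 rose and 13 fell at 20 µM cycloheximide (list median -0.46). MYC, the cytokine LIF and FOSL2, a subunit of AP-1, rose by 1.33, 1.24 and 0.74. Among the 13 were the chemokines CCL20, CXCL1 and CXCL3, which fell by 3.42, 2.76 and 2.39, and NR4A3, a nuclear receptor, by 2.15. Of 9 genes the study itself linked to cycloheximide on related samples, which is not independent evidence, 6 rose (5 by DESeq2; ATF4 and GADD45A are also in the decay list), with CYP1A1 at 4.31, SERPINB2 at 3.27, NOP56 at 2.42 and HIF1A at 1.53. SERPINB2 was at 35.5 CPM in run 3 and had no UMI in run 4.

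Markers of cell types moved at the same concentration. Of 10 hepatocyte markers, 9 fell (list median -2.89), and their sum was 3120 and 7175 CPM against 10808 to 26679 CPM in DMSO. CYP3A4, CYP2C8, APOA1 and TF, which encode 2 drug-metabolizing enzymes, an apolipoprotein and transferrin, fell, with log2 changes of -4.91, -4.74, -4.60 and -4.10. Of 7 cholangiocyte markers tested, 3 fell (KRT19, SPP1 and SCTR, with log2 changes of -2.90, -2.88 and -2.61) and KRT7, under 5 CPM in all 6 cultures, rose by 2.16. Their sum was 29.9 and 56.7 CPM, against 111 to 179 CPM. Of 7 mesenchymal markers, COL3A1 and DCN fell by 3.75 and 1.83 and PDGFRB rose by 1.57. Of 2 endothelial markers tested, KDR fell by 1.61, and none of 6 cycling and 2 immune markers was called by edgeR or DESeq2, with 0 at an unadjusted p under 0.05 in edgeR. The part of the marker changes in the levels of the 8 genes was not tested.

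Over the means of the 20 treatments, each gene was compared with all genes that reached 10 CPM in 1 treatment, using Pearson's r of log2(CPM + 1). The treatments share runs and sublibraries, and r is a description over 20 points that include the one that chose the genes. The second r in each pair of values leaves 20 µM cycloheximide out. The genes most like NEGR1 were MAP7D3 (0.96 and 0.90), ZNF106 (0.92 and 0.80) and SDAD1 (0.92 and 0.80). The most like BMPER were PUM3 (0.96 and 0.91), MCCC1 (0.95 and 0.88) and SLC7A6 (0.94 and 0.87). SNAPC1 had SLC7A6 (0.94 and 0.88), OGFRL1 (0.93 and 0.65) and PUM3 (0.93 and 0.85). TMEM156 had ST7L (0.97 and 0.95), NUP42 (0.96 and 0.93) and an unnamed Ensembl gene, and KCTD16 had LIPH (0.95 and 0.92), XPC (0.94 and 0.93) and PTCD2 (0.93 and 0.91). IL1RL1 had NXN (0.88 and 0.75), PUM3 (0.85 and 0.68) and MIR4435-2HG (0.84 and 0.67). PAPPA had LINC02043 (0.96 and 0.96), VGLL3 (0.96 and 0.93) and MGLL (0.95 and 0.92), and CCDC80 had RAB4A-AS1 (0.95 and 0.91), TGFB2 (0.93 and 0.88) and P2RY11 (0.92 and 0.86). The mean of PUM3 was 126 CPM in DMSO, 305 CPM at 20 µM cycloheximide and 68.5 CPM at 0.4 µM rotenone.

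Among the 8 genes themselves, PAPPA and TMEM156 were the most alike over the 20 treatments (r = 0.95, or 0.92 without 20 µM cycloheximide), and NEGR1 and PAPPA were the least alike (r = 0.65, or 0.35 without it). NEGR1 had r between 0.32 and 0.50 with the other 7 genes once 20 µM cycloheximide was left out.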

How the data were processed

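The authors deposited whole-number UMI counts per gene and cell (Parse split-pool data aligned to GRCh38), with a cell table giving each cell's total count and sample name. The sources used here give neither the annotation nor the pipeline version. No value column was left unmapped. Cells were filtered as in the study's methods (500 genes, 20% mitochondrial) and UMIs were summed per sample name. Each treatment was compared with the 4 DMSO cultures by edgeR 4.0.16 (R 4.3.3; quasi-likelihood test, library totals, filterByExpr, Benjamini-Hochberg adjusted p under 0.05). SE is the log2 fold change divided by the root of F. The fit was tested on simulated data. Counting intervals are exact conditional binomial and shares have exact Clopper-Pearson intervals. Alternatives were TMM and DESeq2 size factors, DESeq2 1.42.0, other gene and cell filters, left-out cultures and the run as a block.

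The 8 genes, the lists and the tests were chosen with earlier results of these data known. Named genes were the 8, the 3 most like each, and up to 4 called genes of each list with the largest change. Where a list had 5 or fewer calls in a direction, all were named. The 3 marker classes were chosen after seeing the data, in place of 6 lists. The sources do not define the run numbers. Troglitazone is labelled 50 µM in the cell table, while the protocol text lists lower concentrations. Cultures with fewer than 30 cells were not used.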

Additional observations from a re-analysis of the deposited data

Results flagged for a closer look

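Cells over the mitochondrial limit were left out of the comparisons, and all 8 genes were high in those of 20 µM cycloheximide too (128 cells, against 149 such DMSO cells). At 20 µM, NEGR1 was at 224 CPM, BMPER at 223, TMEM156 at 307, KCTD16 at 51.1, SNAPC1 at 195, IL1RL1 at 84.5, PAPPA at 589 and CCDC80 at 75.6 CPM. Each value was above the highest DMSO culture of such cells, a separation whose share over all genes was not counted. Run 4 adds little to these values, since 37 of its 40 cells at 20 µM had been kept. KCTD16 in sublibrary 4 of the DMSO cells, at 20.9 CPM, stood apart from the other 7 sublibraries. It was 1 of 32 groups checked for a value far from the rest, and chance marks about 1 in 20 such groups.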

How the results depend on the processing

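For 20 µM cycloheximide the median log2 ratio of the 8 genes was 2.60 and became 2.33 as a mean over cells and 2.91 in the cells over the mitochondrial limit, an alternative chosen after seeing the data. Leaving out 1 culture at a time gave 2.28 to 2.64 at 20 µM, 0.18 to 0.95 at 2 µM and 0.37 to 0.70 at 0.2 µM, with the 2 µM value of 0.18 coming without the run 3 culture. At 0.2 µM the cells over the limit gave 1.11. The median share of cells was 11.3% in DMSO and 45.04% at 20 µM, against 18.5% and 59.7% when thinned to 10000 UMIs and 41.0% and 75.8% without thinning. With 0.4 µM rotenone, 7 genes were called, and 7 to 8 with 1 culture left out. The run was not taken as pairing the cultures, since not every treatment shared it: the correlation across genes of the run 3 minus run 4 difference with that of DMSO was 0.26 to 0.60 in 7 of 10 treatments and -0.28 to -0.08 in the other 3. With the run as a replicate block, the calls at 20 µM cycloheximide went from 1220 to 464 higher and from 2474 to 1376 lower, 1 of the 8 genes was called at 2.5 µM etoposide (IL1RL1, adjusted p = 0.00266, higher), and over all genes the higher and lower calls became 73 and 49, 46 and 29, and 150 and 89 at 0.25, 2.5 and 25 µM etoposide, 202 and 119, 14 and 21, and 68 and 57 at 0.001, 0.01 and 0.1 µM tunicamycin, 25 and 0 with troglitazone, 102 and 74 at 0.2 µM and 2 and 1 at 2 µM cycloheximide, and at 0.4 µM rotenone CCDC80 was not called (adjusted p = 0.0635) while IL1RL1 was (adjusted p = 0.0296). Over all genes, leaving out 1 culture gave 763 to 1267 higher and 1146 to 2230 lower calls at 20 µM cycloheximide, with 763 higher without the run 3 DMSO culture, 773 without that of run 6, and 782 higher and 1146 lower without the run 3 treated culture. At 0.4 µM rotenone, DESeq2 size factors gave 5884 higher calls and DESeq2 gave 5564 lower, against 3794 and 8373. Only 37 cells stand behind the run 4 values at 20 µM cycloheximide.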
